A study of Mus musculus with 8 samples.

Results

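The genes described here changed in 1 direction from spleen monocyte to Ly6C-high tumour cell and again from Ly6C-high tumour cell to F4/80-high tumour macrophage. They were chosen on the group means of log2 array values with the 3 populations taken as ordered steps. A gene was kept where both successive differences had the same sign and each was 0.5 or more on the log2 scale. Of 21442 genes measured, 585 met this rule. Of these, 422 were higher at each step (1.97% of all genes, called rising here) and 163 were lower at each step (0.76%, called falling). The values of these 6 arrays chose the genes, so the levels and steps given below describe them and carry no test. The order of the 3 populations is the rule's, and no cell was followed over time.

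All samples were total RNA of cells sorted from untreated C57BL/6 mice of the Cx3cr1gfp/+ genotype, in which a green fluorescent protein gene replaces 1 copy of the fractalkine receptor gene. Spleen gave the Ly6C-high monocytes (1 array labelled male and 1 mixed), orthotopic colorectal tumours gave the Ly6C-high infiltrating cells and the F4/80-high tumour-associated macrophages (all labelled male), and healthy colon gave steady-state lamina propria macrophages (1 array labelled male and 1 female). Tissue was digested with Collagenase VIII and stained with antibodies before the sort. Each of the 4 populations had 2 arrays, ages were not given in the sources used here, and nothing in the labels says whether arrays came from separate animals or pools. The p-values therefore measure only the spread between these samples.

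Monocytes that carry much Ly6C leave the blood, enter inflamed tissue or a tumour, and there can become macrophages. As background, this change is known for the loss of genes used in circulation and for the gain of genes used in clearing dead cells and debris, such as those for C1q and the receptor MERTK. Monocytes are mostly out of the cell cycle, while some tissue macrophages divide.

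Across the arrays the median log2 value lay between 6.84 and 7.07. It was lowest in the replicate 2 arrays of both tumour populations, at 6.90 for Ly6C-high tumour cells and 6.84 for F4/80-high macrophages. Between the 2 replicates of a population, 76 genes differed by 2-fold or more in spleen monocytes, 371 in colon macrophages, 768 in F4/80-high macrophages and 1536 in Ly6C-high tumour cells. The middle step of the rule therefore rests on the pair of arrays that differed most. The genes that defined the sorts were not graded. Ly6c2, which encodes a Ly6C antigen, read 12.91 and 12.93 in spleen monocytes, 13.01 and 12.71 in Ly6C-high tumour cells, and 10.91 and 11.57 in F4/80-high macrophages. Adgre1, which encodes F4/80, read 12.07 and 12.02, then 11.93 and 11.15, then 12.49 and 12.31. The Ly6C-high tumour cells thus matched spleen monocytes in Ly6c2 and had the lowest Adgre1 values of the 3 groups. Ccr2, Cx3cr1, Csf1r and H2-Ab1 were not members either.

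The lists of markers of other cells were read in the same arrays. The 24 epithelial markers averaged 8.70 in Ly6C-high replicate 2 and 8.18 in F4/80-high replicate 2, against 6.62 and 6.51 in the replicate 1 arrays and 6.77 and 6.15 in spleen monocytes. In the replicate 2 array, 19 of the 24 were 2-fold or more above replicate 1 in Ly6C-high tumour cells, and 17 in F4/80-high macrophages. The 20 fibroblast markers averaged 9.42 and 8.64 in the replicate 2 arrays against 7.77 and 7.39 in the replicate 1 arrays, and the 16 endothelial and mural markers 8.20 and 7.49 against 6.89 and 6.69. In spleen monocytes the fibroblast markers averaged 6.75 and 6.77. The replicate 1 tumour arrays were thus not free of such signal. On them Dcn read 11.50 and 10.82 (spleen 6.26 and 5.78) and Krt8 10.38 and 10.13 (8.58 and 7.32). Epcam read 6.11 and 6.35 (6.25 and 5.90). The part of these cells in the values of the graded genes was not tested. None of the markers on these 3 lists was a graded gene. With 1.97% of all genes rising and 0.76% falling, this is near the background. Replicate 2 was also above replicate 1 in the mean of the 14 B and plasma cell markers, at 6.91 against 6.25 in Ly6C-high tumour cells and 7.21 against 6.13 in F4/80-high macrophages. The 19 T and NK cell markers averaged 6.78 against 6.46 and 6.78 against 6.14. The 18 neutrophil markers were lower on replicate 2 in Ly6C-high tumour cells (7.57 against 7.88) and higher in F4/80-high macrophages (7.66 against 6.85). The neutrophil marker Ly6g read 9.23 against 6.16 and 8.80 against 5.75. In bulk RNA, fewer cells of a type and less RNA per cell cannot be told apart.

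The graded genes changed by a median of 2.06 from monocyte to F4/80-high macrophage in the rising set (range 1.04 to 5.83) and of -2.10 in the falling set (-7.94 to -1.01). The median first step was 1.10 in rising genes and -1.13 in falling genes, and the median second step 0.83 and -0.74. In rising genes the first step made up a median of 56.9% of the whole change (interquartile range 46.6% to 65.8%). In falling genes it made up 55.9% (48.3% to 65.0%). The share lay between 40% and 60% in 212 rising and 85 falling genes. The rule, which asks for 0.5 at both steps, itself bounds this share. Over 75% of the change lay in the first step in 43 rising and 17 falling genes, and under 25% in 3 and 4. Both steps reached 1 or more in 93 rising and 41 falling genes. A probe set mean of 7 or more in at least 1 of the 4 groups was found for 418 rising and 161 falling members.

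**Figure D1:**
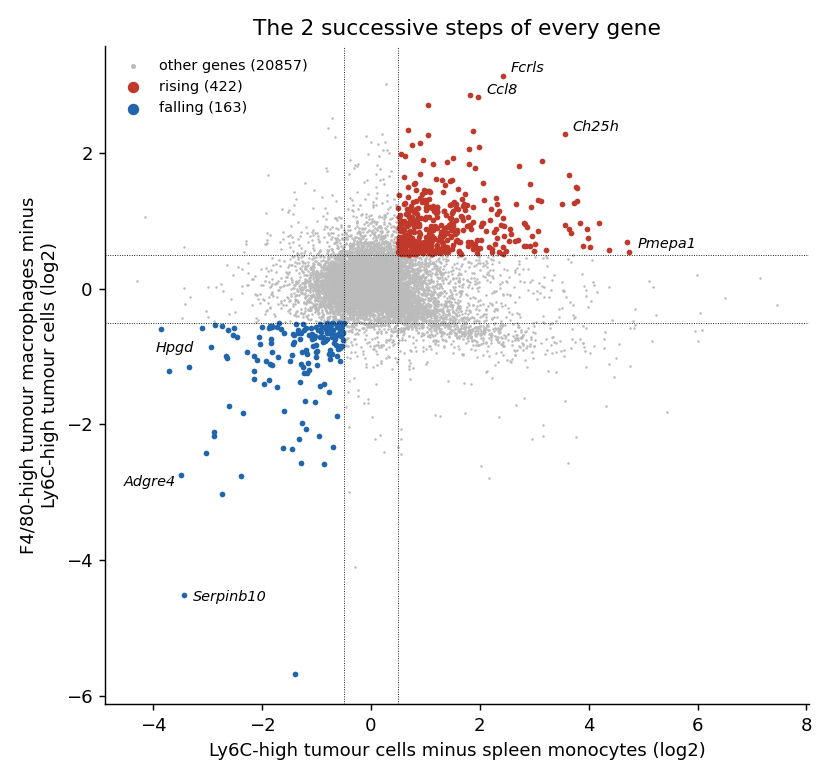
Each point is 1 of the 21442 genes, with the difference between Ly6C-high tumour cells and spleen monocytes on the x axis and the difference between F4/80-high tumour macrophages and Ly6C-high tumour cells on the y axis, both log2. Dotted lines mark steps of 0.5 and -0.5, the 422 rising genes are red and the 163 falling genes blue, and Serpinb10 lies far out in the falling corner.

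The values just inside and outside the threshold differed little. Lrrc40 entered the rising set with steps of 0.69 and 0.50 and Phf19 with 0.50 and 0.53, while Pmf1 (1.01 and 0.50) and Lair1 (0.71 and 0.50) fell just short, their second steps being below the limit before rounding. In the falling set, Casp4, the mouse sensor of cytosolic endotoxin, entered with -0.50 and -0.51 and the Wnt receptor gene Fzd4 with -0.81 and -0.50, while Ppef2 (-1.58 and -0.50, short of the limit before rounding) and Bri3bp (-0.96 and -0.49) did not.

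The rule uses means, so the arrays behind each mean were examined next. In 282 of 422 rising genes (66.8%) and 126 of 163 falling genes (77.3%) the 3 pairs of arrays were in order with no overlap, which is 1.32% and 0.588% of all genes. Over all genes, 5.2% were ordered upward and 3.19% downward without overlap, but the rule had already chosen its members on these arrays. Replicate 1 arrays alone met the rule in 233 rising and 124 falling members, replicate 2 arrays alone in 207 and 98, and both separately in 137 and 82. Neither pair of single arrays met it in 119 rising and 23 falling members. The 2 Ly6C-high arrays differed by a median of 0.78 in rising members and 0.43 in falling members, against 0.14 and 0.11 for the monocyte arrays and 0.30 and 0.40 for the F4/80-high arrays. This gap was larger than the smaller step in 227 rising and 51 falling members. Without replicate 1 of Ly6C-high tumour cells the rule found 270 rising genes, of which 196 were among the 422. Without replicate 1 of F4/80-high macrophages it found 634 rising and 274 falling genes, of which 376 and 136 were members. With replicate 1 arrays only for both tumour populations it found 349 and 181.

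Where each Ly6C-high array stood was expressed as a position, with 0% at the mean of spleen monocytes and 100% at the mean of F4/80-high macrophages. In 108 rising genes (25.6%) replicate 1 lay below 25% and replicate 2 above 75%, and the reverse held in 7. In 115 rising genes (27.3%) both arrays lay between 25% and 75%. Among falling genes, 91 (55.8%) had both arrays between 25% and 75% and 19 (11.7%) had replicate 1 below 25% and replicate 2 above 75%. The mean of the middle population therefore stands for arrays that read alike in some members and for unlike arrays in others.

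Cell cycle genes were among those that showed this difference between the arrays. Of the 43 measured genes in the cell cycle list, 37 (86.0%) were rising members and none was falling, against 1.97% of all genes that were rising. The median change of the whole list from monocyte to F4/80-high macrophage was 2.22, against -0.02 over all genes. This list and those below were chosen with earlier results of these data known. Their shares describe the members and support nothing by their count. Among the 37 were the proliferation marker Mki67, topoisomerase Top2a, the cyclins Ccna2, Ccnb1, Ccnb2 and Ccne2, the mitotic kinases Cdk1, Plk1, Aurka, Bub1 and Ttk, the replication helicase subunits Mcm2 to Mcm7, and the nucleotide synthesis enzymes Rrm1, Rrm2 and Tyms. The other 6 genes of the list, Cdc20, Aurkb, Cenpa, Kif23, Ccne1 and Pcna, did not meet the rule.

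The upstream regions of the 4 cell cycle members with the largest change are shown because mitotic genes are known for CCAAT boxes, short elements bound by the factor NF-Y. Each sequence covers the 250 bases before the RefSeq gene start in build GRCm38.p6, written in the direction of transcription. Capitals mark a CCAAT box on either strand (CCAAT or ATTGG). The Cdk1 region is chr10:69352913-69353162, minus strand, with 3 boxes. The Ccnb1 region is chr13:100786487-100786736, minus strand, with 2. The Prc1 region is chr7:80294201-80294450, plus strand, with 1, and is 1 of 2 promoters listed for that gene. Where several promoters were listed, the one with the most CCAAT boxes was shown, or the first of those with equal numbers. The Bub1 region is chr2:127831860-127832109, minus strand, with 2, on opposite strands.
Cdk1: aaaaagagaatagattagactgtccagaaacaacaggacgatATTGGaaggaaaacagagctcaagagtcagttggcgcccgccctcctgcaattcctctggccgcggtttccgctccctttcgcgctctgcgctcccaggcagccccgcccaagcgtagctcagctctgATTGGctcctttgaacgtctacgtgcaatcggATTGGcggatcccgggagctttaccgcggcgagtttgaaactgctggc
Ccnb1: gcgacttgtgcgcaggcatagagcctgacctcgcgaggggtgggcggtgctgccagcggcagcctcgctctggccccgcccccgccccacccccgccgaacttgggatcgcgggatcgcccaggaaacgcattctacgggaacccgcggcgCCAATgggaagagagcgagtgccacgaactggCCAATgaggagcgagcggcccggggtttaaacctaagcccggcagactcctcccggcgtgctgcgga
Prc1: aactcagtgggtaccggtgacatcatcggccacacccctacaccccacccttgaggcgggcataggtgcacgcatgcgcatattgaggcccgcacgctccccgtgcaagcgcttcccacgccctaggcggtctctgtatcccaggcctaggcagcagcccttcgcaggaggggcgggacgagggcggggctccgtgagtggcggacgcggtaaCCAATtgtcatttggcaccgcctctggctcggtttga
Bub1: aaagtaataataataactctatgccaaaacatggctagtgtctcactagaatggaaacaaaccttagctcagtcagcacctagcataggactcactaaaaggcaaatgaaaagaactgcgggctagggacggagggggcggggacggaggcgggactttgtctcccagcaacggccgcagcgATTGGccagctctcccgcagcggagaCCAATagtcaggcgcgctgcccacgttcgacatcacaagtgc

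RefSeq promoters were matched to 32 of the 37 cell cycle members, 337 of the 422 rising genes and 117 of the 163 falling genes. A CCAAT box on either strand stood in 26 of 34 promoters of the cell cycle members (76.5%), against 33.8% of all 32851 promoters of the same length. It stood in 40.6% of the promoters of rising genes outside the cell cycle list, in 33.3% of 15 promoters of the tissue macrophage members described below, and in 27.8% of 151 promoters of falling genes. The CHR element TTTGAA, another element of mitotic promoters, stood in 23.5% of the cell cycle promoters and 16.0% of all promoters. Sites of the factors E2F, PU.1, MAF and C/EBP were searched too. In the cell cycle promoters they stood in 11.8%, 0%, 5.88% and 2.94%, beside 3.82%, 2.44%, 3.81% and 9.56% of all promoters. The E2F site also stood in 8.64% of the promoters of rising genes outside the cell cycle list. The letters of all these motifs were searched on both strands, and a match describes the letters only. The Cdk1 region held 2 CHR elements beside its 3 CCAAT boxes.

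The 4 genes gave the same picture across the arrays. Cdk1, the kinase that starts mitosis, read 7.92 and 7.59 in spleen monocytes, 8.91 and 11.18 in Ly6C-high tumour cells and 11.18 and 11.57 in F4/80-high macrophages. Ccnb1, the cyclin that activates it, read 7.11 and 6.63, then 8.07 and 10.45, then 9.89 and 10.49. Bub1, a kinase of the spindle checkpoint, read 6.21 and 6.46, then 6.87 and 9.13, then 9.13 and 9.51. Ly6C-high replicate 1 stood at 31.9% of the way from monocytes to F4/80-high macrophages in Cdk1, 35.98% in Ccnb1 and 17.98% in Bub1, and replicate 2 stood near or within the values of F4/80-high macrophages. Prc1, which bundles microtubules during cytokinesis, read 5.95 and 5.96, then 6.85 and 8.81, then 8.74 and 9.32, so its replicate 2 value lay inside the F4/80-high range.

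Over the 37 members, the mean log2 value per array was 7.31 and 7.30 in spleen monocytes, 7.70 and 9.47 in Ly6C-high tumour cells, and 9.43 and 9.81 in F4/80-high macrophages. The median position of the cell cycle members was 13.1% on Ly6C-high replicate 1 (range -17.1% to 45.6%) and 92.8% on replicate 2 (63.3% to 129%). The 2 ranges did not overlap. Among the cell cycle members, the arrays were in order without overlap in 11 of the 37, and 2 met the rule in both replicates. Without Ly6C-high replicate 1 the rule kept 6 cell cycle genes, without replicate 2 it kept 15, and with replicate 1 arrays only for both tumour populations 15. The step from monocyte to F4/80-high macrophage was present on both F4/80-high arrays, while the intermediate mean came from averaging 2 unlike arrays. The markers of epithelial, fibroblast and endothelial cells were higher on the same Ly6C-high replicate 2 array, and their part in the cell cycle values was not tested.

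**Figure D2:**
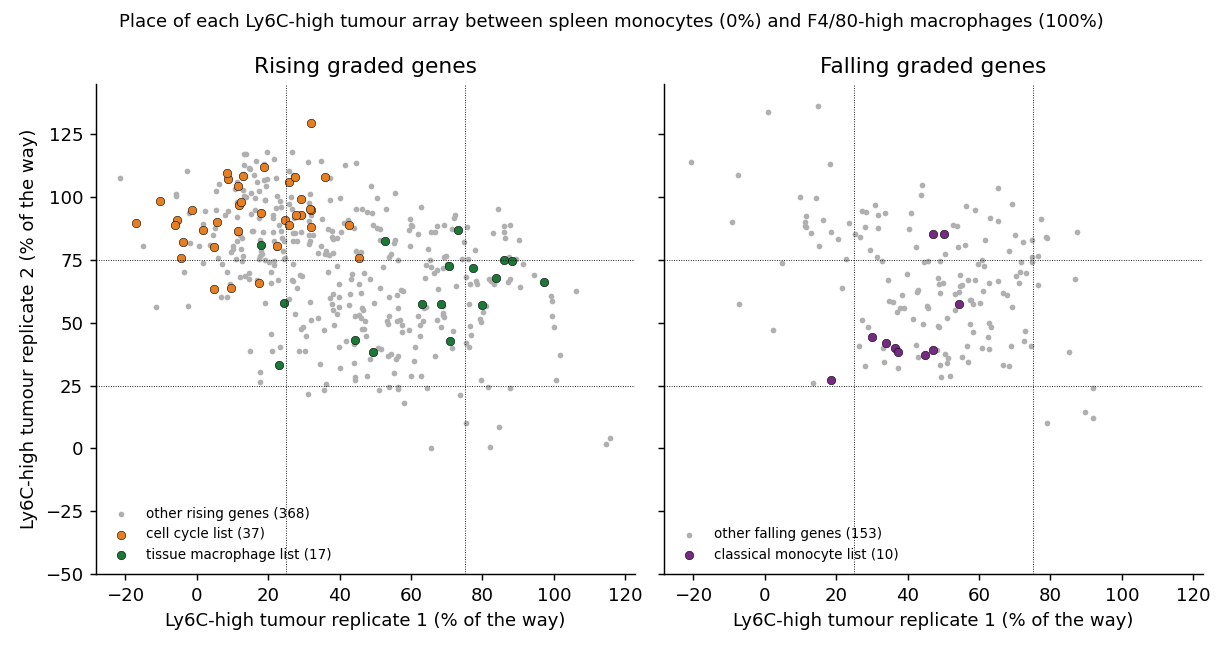
Positions of the 2 Ly6C-high tumour arrays between the mean of spleen monocytes (0%) and the mean of F4/80-high macrophages (100%), replicate 1 on the x axis and replicate 2 on the y axis, for the rising genes (left panel) and falling genes (right panel), with dotted lines at 25% and 75%. Cell cycle members sit to the upper left, with medians of 13.1% and 92.8%. The tissue macrophage members have medians of 70.7% and 66.2% and the classical monocyte members 41.1% and 40.8%.

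Of the 35 listed genes of tissue macrophages, 17 (48.6%) were rising members and none was falling, again against 1.97% of all genes. The median change of the whole list was 2.42. This list too was chosen with earlier results of these data known, so its share is a description. The 17 members averaged 7.74 and 7.22 in spleen monocytes, 10.15 and 10.12 in Ly6C-high tumour cells, and 11.73 and 11.58 in F4/80-high macrophages. Their median position was 70.7% on Ly6C-high replicate 1 and 66.2% on replicate 2, with ranges of 18.05% to 97.1% and 33.1% to 86.7%. Both arrays lay between 25% and 75% in 6 of the 17, 1 array lay outside in 10, and in 1 gene replicate 1 was below 25% and replicate 2 above 75%. The arrays were in order in 16 of the 17, and 14 met the rule in both replicates. Leaving out any array of the 6 in turn left 17 or 18 genes of this list in the rising set.

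Receptors and bridging proteins that handle dead cells were among them. Mertk, a receptor for cells that expose phosphatidylserine, read 7.52 and 6.95 in spleen monocytes, 11.60 and 10.21 in Ly6C-high tumour cells and 11.94 and 11.52 in F4/80-high macrophages. Its ligand Gas6 read 6.73 and 6.22, then 7.14 and 9.43, then 10.29 and 9.96. Mertk had thus come most of the way in Ly6C-high tumour cells, with replicate 1 inside the F4/80-high range, while Gas6 was near the monocyte level on replicate 1 and near the F4/80-high level on replicate 2. Stab1, the scavenger receptor stabilin-1, read 7.53 and 6.72, then 11.68 and 10.95, then 12.52 and 12.04. Mrc1, the mannose receptor, read 8.94 and 8.34, then 11.21 and 10.19, then 12.57 and 11.95. Both scavenger receptors were in order with no overlap.

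Of 19 complement genes, 3 were rising members (15.8%), and of 33 genes of lysosomes and lipid handling, 2 were rising (6.06%) and 1 was falling (3.03%), beside 1.97% and 0.76% of all genes. C1qa, a chain of the first complement component, read 8.29 and 7.27 in spleen monocytes, 11.65 and 11.37 in Ly6C-high tumour cells and 12.69 and 12.86 in F4/80-high macrophages. C1qc read 9.36 and 8.40, then 12.77 and 12.25, then 13.37 and 13.42. In both chains the first step was the larger, at 74.7% and 80.4% of the whole change. C4b, a later complement component, read 7.30 and 7.42, then 9.25 and 8.41, then 10.54 and 9.20, with overlap between the tumour populations. Abca1, the exporter of cholesterol to lipoproteins, read 8.35 and 8.12, then 11.57 and 10.91, then 12.02 and 11.78. The lipid carrier gene Fabp5 read 8.99 and 8.82, then 9.27 and 10.05, then 10.11 and 11.18. Scarb1, which encodes the receptor for high-density lipoprotein, was a falling member and read 11.87 and 11.75, then 10.46 and 10.66, then 9.76 and 10.32. Abca1, Fabp5 and Scarb1 thus did not share a direction, and 30 of the 33 genes were in neither set. None of Abca1, Fabp5 and Scarb1 met the rule in both replicates, whereas all 3 complement members did.

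Among named genes with ordered arrays, with predicted and unnamed transcripts left out, the 10 rising genes with the largest change spanned 5.00 to 5.83 on the log2 scale. Ch25h, the enzyme that makes 25-hydroxycholesterol, read 5.30 and 5.16 in spleen monocytes, 9.24 and 8.33 in Ly6C-high tumour cells and 11.33 and 10.80 in F4/80-high macrophages, a 57.0-fold difference between the ends. Fcrls, an Fc receptor-like gene best known from microglia, read 6.32 and 5.39, then 8.31 and 8.24, then 11.82 and 11.00. Ch25h made 60.9% of its change in the first step and Fcrls 43.6%. The others were the chemokine genes Ccl7, Ccl12 and Pf4, the TGF-beta-induced regulator Pmepa1, the inhibitory lectin-like receptor Cd72, Stab1, Ms4a14 and C1qa.

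**Figure D3:**
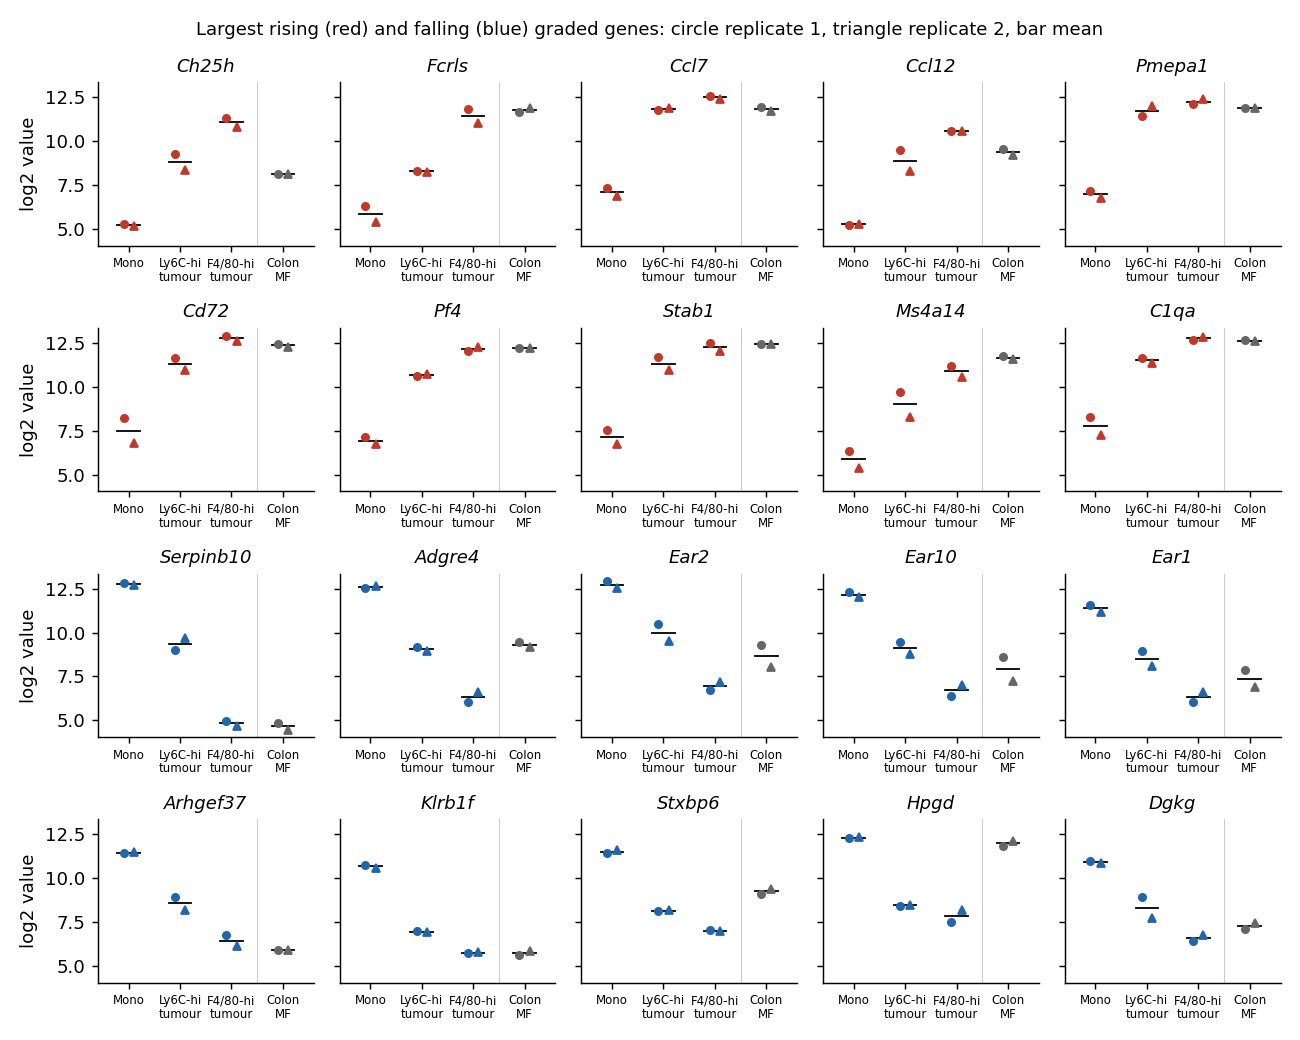
Log2 values on each array of the 10 rising (red) and 10 falling (blue) genes with the largest change among named members with ordered arrays, with circles for replicate 1, triangles for replicate 2 and bars for means. Colon macrophages, which the rule did not use, are grey at the right of each panel. They stand near F4/80-high macrophages in Pf4 and near spleen monocytes in Hpgd. The colon arrays were rich in epithelial markers, whose part in these values was not tested.

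Ligands were led by CC chemokines that attract monocytes. Of 28 chemokine genes, 5 were rising members (17.9%, beside 1.97% of all genes) and none was falling. Ccl7 read 7.33 and 6.89 in spleen monocytes, 11.75 and 11.86 in Ly6C-high tumour cells and 12.57 and 12.42 in F4/80-high macrophages, and Ccl12 read 5.23 and 5.28, then 9.49 and 8.28, then 10.57 and 10.55. Ccl8 read 6.38 and 4.82, then 6.77 and 8.37, then 10.06 and 10.73. All 3 are on chromosome 11, and their share of the change made in the first step differed, at 87.2%, 68.5% and 41.1%. Pf4, which encodes a chemokine best known from platelets, read 7.12 and 6.72, then 10.63 and 10.73, then 12.05 and 12.29. Its platelet companion Ppbp read 6.46 and 6.62, then 9.47 and 9.75, then 9.68 and 11.23. Pf4 and Ppbp were also the only 2 of 12 erythroid and platelet markers among the rising members (16.7%, beside 1.97% of all genes).

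Of 26 growth and angiogenic factors, Tgfb3 and Pdgfc were rising (7.69%, beside 1.97% of all genes). Tgfb3, a transforming growth factor, read 5.60 and 5.69 in spleen monocytes, 8.60 and 9.71 in Ly6C-high tumour cells and 10.05 and 10.75 in F4/80-high macrophages, and Pdgfc, a platelet-derived growth factor, read 6.25 and 6.31, then 7.23 and 9.08, then 10.49 and 10.46. Of 36 myeloid transcription factors, Maf and Bhlhe41 were rising (5.56%) and Rara was falling (2.78%, beside 0.76% of all genes). Maf, known for its role in resident macrophages, read 9.60 and 9.94, then 11.23 and 10.99, then 12.00 and 11.81. Bhlhe41 read 5.50 and 5.62, then 6.00 and 6.22, then 8.26 and 7.95, so that 21.9% of its change lay in the first step. Rara, the retinoic acid receptor alpha, read 11.58 and 11.54, then 10.95 and 11.03, then 9.74 and 10.09. None of the 3 transcription factors had overlapping groups.

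Of 34 matrix proteases and inhibitors, 5 were rising (14.7%) and 1 was falling (2.94%), beside 1.97% and 0.76% of all genes. Mmp12, macrophage elastase, read 6.18 and 6.38 in spleen monocytes, 10.20 and 10.34 in Ly6C-high tumour cells and 10.61 and 11.41 in F4/80-high macrophages, and the collagenase gene Mmp13 read 7.01 and 5.94, then 9.05 and 9.31, then 10.59 and 11.40. Mmp8, the collagenase stored in neutrophils, was falling and read 11.37 and 11.25, then 11.56 and 9.34, then 7.77 and 7.96. The first Ly6C-high array of Mmp8 lay above the monocytes, so its groups overlapped. Col14a1, which encodes a collagen found on the surface of fibrils, was the only member among 31 matrix proteins (3.23%, near the 1.97% of all genes). It had nearly equal steps: 6.63 and 6.84, then 8.65 and 8.80, then 10.85 and 10.78. The integrin genes Itga6 and Itga9 and the tetraspanin genes Cd63 and Cd81 were rising among 28 adhesion and migration receptors (14.3%, beside 1.97% of all genes). Itga6, a laminin receptor subunit, read 6.56 and 6.06, then 10.65 and 10.71, then 11.63 and 10.89, with 88.4% of its change in the first step.

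Of 32 classical monocyte genes, 10 (31.2%) were falling members and none was rising, against 0.76% of all genes that were falling. As with the other lists, earlier results of these data were known when it was chosen, so this share is a description. Among them were Hp, Ifitm6, Cd177, Mgst1, Gsr, Sorl1, Adgre4, Napsa and Serpinb10, and the median change of the whole list was -1.78. Adgre4 also stands on a list of non-classical monocyte genes, written after the members were seen, of which 6 of 18 (33.3%) were falling members. The 10 members averaged 12.29 and 12.29 in spleen monocytes, 10.73 and 10.55 in Ly6C-high tumour cells and 8.55 and 8.55 in F4/80-high macrophages. Their median position was 41.1% on Ly6C-high replicate 1 and 40.8% on replicate 2, and all 10 were in order and met the rule in both replicates. Ifitm6, of the interferon-induced transmembrane family, read 12.55 and 12.57 in spleen monocytes, 11.26 and 10.97 in Ly6C-high tumour cells and 8.75 ± 0.35 (mean and SD, n = 2) in F4/80-high macrophages. Ifitm6 had 37.9% of its change in the first step, so in this gene the Ly6C-high tumour cells stayed nearer the monocytes.

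Under the same limits, the 10 falling genes with the largest change spanned 4.34 to 7.94 in size. Serpinb10, an intracellular protease inhibitor, read 12.82 and 12.72 in spleen monocytes, 9.02 and 9.66 in Ly6C-high tumour cells and 4.97 and 4.70 in F4/80-high macrophages, a 245-fold difference. Adgre4, an adhesion receptor related to F4/80, read 12.52 and 12.62, then 9.18 and 8.97, then 6.02 and 6.62. Hpgd, the enzyme that inactivates prostaglandin E2, read 12.27 and 12.33, then 8.41 and 8.48, then 7.51 and 8.21. Serpinb10 and Adgre4 had large steps on both sides, whereas 86.7% of the change of Hpgd lay in the first step. The eosinophil-associated ribonuclease genes Ear2, Ear10 and Ear1, all on chromosome 14, were lower at each step alike, with values of 12.93 and 12.52, then 10.49 and 9.50, then 6.74 and 7.20 for Ear2. These genes are near-identical copies, and their probe sets may read one another's transcripts, so they may not be 3 separate results. The others were Arhgef37, the lectin-like receptor gene Klrb1f, the SNARE-binding protein gene Stxbp6, and Dgkg, a diacylglycerol kinase. The uncharacterised transcript I830127L07Rik, chosen after its values were seen, read 13.03 and 12.93, then 12.02 and 11.14, then 5.81 and 5.98.

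Among the members with large changes, 6 had the most equal steps. Rising Gas6, Col14a1 and Plxdc2 had 49.5%, 48.8% and 48.4% of their change in the first step. Falling P2ry1, an ADP receptor, had 49.7%, Il12rb2, an interleukin-12 receptor subunit, 50.3%, and Gramd4 48.7%. In Gas6 the equal steps came from arrays at 7.14 and 9.43, in Col14a1 from arrays at 8.65 and 8.80, so only the latter is equally spaced on each array.

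Several state lists held no graded gene. None of 20 inflammatory cytokine genes, 36 interferon-response genes or 34 hypoxia and glycolysis genes met the rule in either direction. With 1.97% of all genes rising and 0.76% falling, a count of 0 in lists of this size is near the background and is not a result about them. The median first step of these lists was 2.03, 0.61 and 0.88, and the median second step was -0.30, -0.44 and -0.11. By these medians the lists were highest in the middle population, a form that the rule does not select. Matrix proteins had medians of 2.02 and -0.60, and the fibroblast markers 1.77 and -0.65. The matrix list averaged 9.34 and 10.49 on the Ly6C-high arrays and 8.90 and 9.91 on the F4/80-high arrays, beside 7.77 and 9.42, and 7.39 and 8.64, for the fibroblast markers, whose part in these values was not tested. Of 11 genes of MHC class II presentation, only their regulator Ciita was a member, and it was falling (9.09%, beside 0.76% of all genes). Ciita read 9.86 and 9.96 in spleen monocytes, 9.39 and 9.28 in Ly6C-high tumour cells and 8.39 and 9.15 in F4/80-high macrophages. It met the rule in neither replicate alone. Of 25 immediate early genes, which respond to handling of cells, only Ier2 was a member, also falling (4%). A single member in lists of this size is not a result about them. Among markers of other cells, the neutrophil list held Mmp9 (rising, 5.56%, beside 1.97% of all genes), and Mmp8 and Ceacam1 (falling, 11.1%, beside 0.76%). The dendritic cell list held Flt3 and Dpp4 (falling, 13.3%), and neither met the rule on the replicate 2 arrays alone. The T and NK cell, B cell and mast cell lists held none, which is near the background.

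The colon arrays were not used to choose the members and show where steady-state macrophages of the healthy gut stand on the same genes. All comparisons below are from limma with Benjamini-Hochberg adjustment over 21442 genes, and calls needed at least a 2-fold difference with an adjusted p no higher than 0.05. Each comparison shares the arrays of the other population with the rule, and members chosen for extreme values there can lie on the other side of them for that reason alone. The colon arrays were also rich in epithelial markers. The 24 markers averaged 10.96 and 11.75 on the colon arrays, with Epcam at 11.30 and 11.92, and 24 were called higher in colon macrophages than in spleen monocytes, 17 higher than in F4/80-high macrophages and 14 higher than in Ly6C-high tumour cells. Their part in the colon differences was not tested.

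In colon macrophages, rising genes stood at a median of 50.7% of the way from spleen monocyte to F4/80-high macrophage (interquartile range 34.4% to 91.2%). Falling genes stood at 95.9% (53.2% to 115%). Against spleen monocytes, 172 rising members (40.8%) were higher in colon macrophages and none lower, beside 6.93% and 4% of all genes. In the same comparison, 116 falling members (71.2%) were lower and 1 (0.613%) higher. Against F4/80-high macrophages, 75 rising members (17.8%) were lower in colon macrophages and 5 (1.18%) higher, beside 2.67% and 3.72% of all genes, while 24 falling members (14.7%) were higher and 16 (9.82%) lower. Against Ly6C-high tumour cells, 49 rising members (11.6%) were higher and 7 (1.66%) lower, beside 4.16% and 2.74% of all genes, and 51 falling members (31.3%) were lower and 11 (6.75%) higher.

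Some of these counts moved with a single array, with members chosen anew in each fit. The 75 rising members lower in colon macrophages than in F4/80-high macrophages became 28 without colon replicate 1, 38 without colon replicate 2, 36 without F4/80-high replicate 2, 41 without either spleen monocyte array and 121 without Ly6C-high replicate 2. The 24 falling members higher there became 12 without colon replicate 2 and 13 without F4/80-high replicate 1, and the 16 lower became 7 and 10. The 49 rising members above Ly6C-high tumour cells became 31 without colon replicate 1, 22 without colon replicate 2 and 76 without Ly6C-high replicate 2. The 172 rising members above spleen monocytes became 263 without F4/80-high replicate 1, 262 without Ly6C-high replicate 2, and ranged down to 119 without spleen monocyte replicate 2. The 51 and 116 falling members below Ly6C-high tumour cells and spleen monocytes stayed between 40 and 58 and between 86 and 161.

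**Figure D4:**
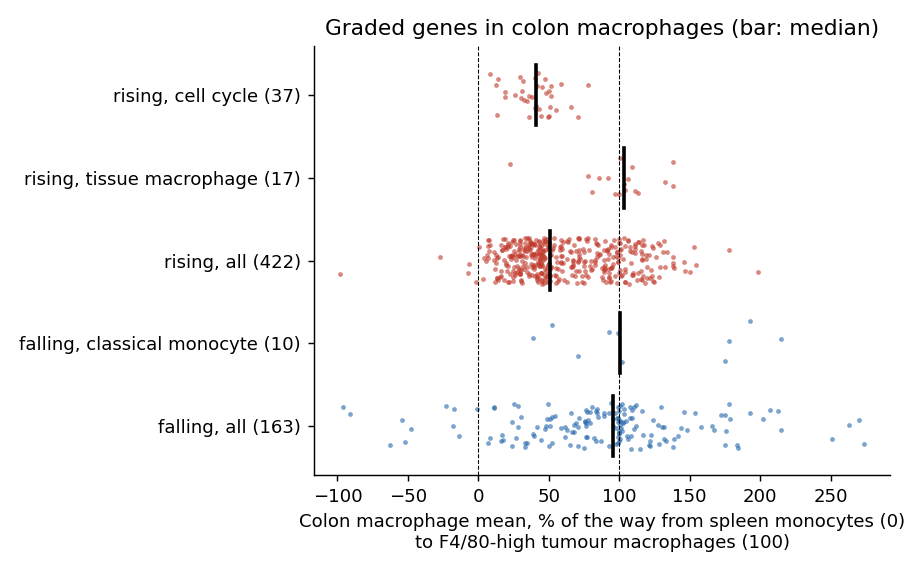
Position of the colon macrophage mean between spleen monocytes (0%) and F4/80-high tumour macrophages (100%), 1 point per gene, for all rising and falling genes and for 3 groups of members, with bars at medians. The median is 40.8% for the cell cycle members, 103.6% for the tissue macrophage members and 100.6% for the classical monocyte members.

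The member groups differed in where colon macrophages stood. The cell cycle members averaged 8.08 and 8.45 on the colon arrays, a median position of 40.8%. None was called against Ly6C-high tumour cells, 2 were lower than in F4/80-high macrophages, and 1 was higher than in spleen monocytes. Over all genes, 6.93% were called higher and 4% lower than in spleen monocytes. The shares of all genes were 4.16% and 2.74% against Ly6C-high tumour cells, and 3.72% and 2.67% against F4/80-high macrophages. The calls of the cell cycle members were near these shares and are not a result about them. The tissue macrophage members averaged 11.77 and 11.76, a median position of 103.6%. Of these 17, 16 were called higher than in spleen monocytes, 9 higher than in Ly6C-high tumour cells, and 1 higher and 1 lower than in F4/80-high macrophages. The classical monocyte members averaged 8.06 and 8.00, at 100.6%. All 10 were lower than in spleen monocytes and 6 lower than in Ly6C-high tumour cells, while against F4/80-high macrophages 2 were higher and 4 lower.

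Single genes were alike or apart in gut and tumour macrophages. Fcrls read 11.67 and 11.87 in colon macrophages, 0.36 ± 0.36 (SE) above F4/80-high macrophages (limma adjusted p = 0.64) and 3.50 ± 0.36 above Ly6C-high tumour cells (adjusted p = 0.0028). Pf4 read 12.23 and 12.18, a difference of 0.04 ± 0.17 from F4/80-high macrophages (adjusted p = 0.94), and Serpinb10 read 4.87 and 4.47, a difference of -0.16 ± 0.24 (adjusted p = 0.78). These differences were within their error, which does not show that the levels were equal. Ch25h read 8.11 and 8.11, below F4/80-high macrophages by 2.96 ± 0.31 (-2.96, adjusted p = 0.0041). Pdpn, which encodes podoplanin, read 8.59 and 8.89 in colon macrophages against 11.59 and 12.18 in F4/80-high macrophages, a difference of -3.15 ± 0.26 (adjusted p = 0.0024). Tnfrsf9, the receptor 4-1BB, read 7.04 and 6.89 against 9.82 and 11.26, a difference of -3.58 ± 0.45 (adjusted p = 0.0067). For these 3 rising genes the tumour macrophages stood apart from the gut macrophages, and the calls held when any of the 8 arrays was left out. Trem2, a lipid-sensing receptor, was the tissue macrophage gene that was lower in colon macrophages, at 10.29 and 10.06 against 11.96 and 12.06 (-1.83 ± 0.14, adjusted p = 0.002), and Col14a1 was lower by the same measure (-1.71 ± 0.14, adjusted p = 0.0021). Of the 20 fibroblast markers, 2 were called lower in colon than in F4/80-high macrophages and 0 higher, beside 2.67% and 3.72% of all genes. The part of fibroblast and epithelial RNA in the differences of these genes was not tested.

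Rising genes that were higher still in colon macrophages numbered 5, of which 3 are given here. Plxdc2 read 11.63 and 11.58 in colon macrophages against 9.82 and 10.52 in F4/80-high macrophages (1.44 ± 0.34, limma adjusted p = 0.041). Mgl2, a lectin of macrophages and dendritic cells, read 11.25 and 10.97 against 8.70 and 10.13 (1.70 ± 0.42, adjusted p = 0.046), and Pxdc1 read 11.10 and 11.20 against 8.11 and 9.17 (2.51 ± 0.61, adjusted p = 0.043). Plxdc2 lost the call without any colon or F4/80-high array, with an adjusted p of up to 0.173. Mgl2 lost it without either colon array, either spleen array or F4/80-high replicate 1 (up to 0.211), and Pxdc1 without any array other than the Ly6C-high ones (up to 0.172). Colon macrophages lay above the tumour macrophages on every array in each of these 3 genes.

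Falling genes split in the same comparison. Hpgd read 11.82 and 12.15 in colon macrophages, 4.13 ± 0.24 above F4/80-high macrophages (limma adjusted p = 0.00091) and -0.31 ± 0.24 from spleen monocytes (adjusted p = 0.47). Adgre4 read 9.48 and 9.15, which is 2.99 ± 0.22 above F4/80-high macrophages (adjusted p = 0.0016) and -3.25 ± 0.22 from spleen monocytes (adjusted p = 0.00036). Hpgd was thus near the monocyte level in the colon arrays and Adgre4 in between. These arrays were rich in epithelial markers, whose part in the values of both genes was not tested. Ciita read 11.19 and 10.81, above F4/80-high macrophages by 2.22 ± 0.26 (adjusted p = 0.0055). Ceacam1 and Dpp4, which intestinal epithelium also expresses, were higher in colon macrophages by 2.75 ± 0.28 (adjusted p = 0.0038) and 2.12 ± 0.25 (adjusted p = 0.0058), on the arrays with the epithelial markers given above. In the other direction, Trem3, an activating receptor, read 6.79 and 6.28 in colon macrophages (-3.04 ± 0.19, adjusted p = 0.0011) and Ifitm6 5.93 and 5.61 (-2.98 ± 0.21, adjusted p = 0.0014). For both genes F4/80-high tumour macrophages still lay between monocytes and gut macrophages on every array. The calls against F4/80-high macrophages named in this group held when any of the 8 arrays was left out.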

How the data were processed

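Biotin-labelled total RNA of each sample was read on 1 Affymetrix array. The authors deposited log2 values, made with RMA (no version given) and Partek 6.6, per the submitters' processing notes. RMA corrects background, normalises between arrays and summarises probe sets, so it can compress low values and large differences. For the genome build, the authors' choice is not given in the sources used here.

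Values came from the deposited matrix of 35556 probe sets. A second deposited table gave gene symbols and RefSeq accessions. Its 8 value columns match no sample label and were not used. Symbols were present for 24692 probe sets and absent for 10864. Accessions of 21023 matched RefSeq (GRCm38.p6), which changed 1926 symbols, and 3669 kept the deposited symbol. Where a gene had several probe sets, the one brightest on average was used, which applied to 1901 of 21442 genes. Among members with several probe sets, another one also met the rule in 15 of 34 rising and 4 of 17 falling genes. In none did another probe set meet it in the opposite direction.

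The members and gene lists were chosen with earlier results of these data known. A list of non-classical monocyte genes was added after the members were seen. Group means of the 6 arrays gave the steps. The comparisons with colon macrophages used limma 3.58.1 in R 4.3.3, with 8 arrays, a mean per group, empirical Bayes moderation (4 residual and 2.64 prior degrees of freedom) and Benjamini-Hochberg adjustment over all genes. Calls needed a 2-fold difference with an adjusted p no higher than 0.05, as in the submitters' design notes. Errors of differences are standard errors of the fit. With 2 arrays per group, precision is limited by their number. The rule and the fit were tested on simulated data.

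Genes were named by rule: the 10 members with the largest change in each direction among those with ordered arrays, up to 4 members of each state list and up to 2 of each list of other cell types, the sort markers, the 2 genes just inside and just outside the threshold, the 3 with the most equal steps, and the 3 with the largest difference each way between colon macrophages and F4/80-high macrophages. Predicted transcripts were left out, as were probe sets annotated to more than 1 gene. Alternatives covered normalization, low values, probe sets, step size, each array, the replicate number as a block, the arrays in the fit and the fold limit. Results for 1 gene that the rule named are not reported here.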

Additional observations from a re-analysis of the deposited data

How the results depend on the processing

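The number of graded genes followed the step size and the arrays. With steps of 0.25 or more there were 1092 rising and 578 falling genes, with steps of 1 or more 93 and 41, and by order without overlap in place of means 1114 and 684. Leaving out 1 array, or the replicates of 1 number, gave 270 to 634 rising and 116 to 274 falling genes. Centring each array on its median, which lay between 6.84 and 7.07, gave 526 and 130, and quantile normalization 457 and 156. With a mean over probe sets there were 409 and 156. The cause of these shifts was not tested.

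In the comparisons with colon macrophages, median centring left 2 rising members higher than in F4/80-high macrophages, 7 falling members higher than in Ly6C-high tumour cells and 0 falling members higher than in spleen monocytes. With only the 2 groups compared in the fit, 171 rising members were lower than in F4/80-high macrophages. In that fit 26 rising members were higher and 4 lower than in Ly6C-high tumour cells, 6 falling members were higher there, and 1 rising member was lower and 2 falling members were higher than in spleen monocytes. Without a fold limit 13 rising members were lower than in Ly6C-high tumour cells.

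Leaving out 1 array in turn, with members chosen anew, gave these ranges. Against F4/80-high macrophages, 1 to 19 rising members were higher and 28 to 121 lower, and 12 to 30 falling members were higher and 7 to 15 lower. Against Ly6C-high tumour cells the ranges were 22 to 76 and 3 to 17 for rising, and 3 to 14 and 40 to 58 for falling. Against spleen monocytes they were 119 to 263 and 0 to 2 for rising, and 0 to 3 and 86 to 161 for falling. Of 118 calls of named genes against colon macrophages, 83 held in all 8 such fits and 35 were lost in at least 1.

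With the replicate block, 3 rising members were higher and 102 lower in colon macrophages than in F4/80-high macrophages. The labels share only a replicate number. Deviations from the group means correlated across genes at 0.77 between the tumour populations, but at -0.15 and -0.11 between spleen monocytes and F4/80-high or Ly6C-high cells. The block moved no other count by over 1.5 times.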

Other observations

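Genes of non-classical monocytes, the patrolling cells that carry little Ly6C, were also seen among the falling members, and a list of 18 such genes was written after the members were known. It held 6 falling genes and no rising gene, beside 0.76% of all genes that were falling. They were Ace, Adgre4, Treml4, Ear2, Pglyrp1 and Ceacam1. Ace, the angiotensin-converting enzyme, read 12.37 and 12.60 in spleen monocytes, 9.86 and 10.39 in Ly6C-high tumour cells and 7.86 and 8.74 in F4/80-high macrophages. Treml4, a receptor gene of this subset, read 12.38 and 12.42, then 9.84 and 9.69, then 8.94 and 9.37. Both were high on the arrays of spleen cells sorted as Ly6C-high. The list was chosen on these values and supports nothing by its count.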
